A study of Mus musculus with 15 samples.

Results

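The 2 Apela knockout mouse strains of this series, NEO-IN and NEO-OUT, were compared with each other at embryonic day 7.5, embryo by embryo and across all genes with enough signal. The comparison set 6 NEO-IN embryos (1 to 6) against 6 NEO-OUT embryos (7 to 12), which are 12 of the 15 embryos sequenced. It covered the 16392 of 45232 genes whose mean normalized count over these 12 libraries was at least 10. A normalized count is the number of reads on a gene divided by a size factor of its library. The labels give both groups as null for Apela, name NEO-IN or NEO-OUT as the genotype, and do not spell out what these names stand for. Embryos of both strains came from matings between homozygous knockout parents, were matched in stage by their morphology, and had the mixed C57Bl6/CD-1 background. Each library came from the polyadenylated RNA of 1 whole embryo, with its extraembryonic tissues. The 3 wild-type embryos of the same background and stage, also whole, enter only as a level. The labels name no litter, sex or batch, so parentage and strain cannot be told apart, and p-values measure the spread between these embryos.

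Apela (also called Elabela or Toddler) encodes a short secreted peptide that, like apelin (Apln), binds the G protein-coupled apelin receptor Aplnr. In zebrafish the peptide is known for guiding mesendodermal cells during gastrulation, and in mouse the receptor is made by early mesoderm. At embryonic day 7.5 the mouse embryo is gastrulating: the primitive streak gives rise to mesoderm and definitive endoderm, while visceral endoderm and extraembryonic ectoderm surround and feed the embryo.

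Depth ran from 48.8 to 61.3 M reads per library. The first principal component of the 12 knockout libraries held 27.5% of the variance and parted the strains without overlap, from -29.6 to -19.7 in NEO-IN and from 17.4 to 38.6 in NEO-OUT. Y-linked RNA, summed over 4 genes, was present in NEO-IN 1, 2 and 3 and in NEO-OUT 9 and 12 (7619 to 8722 normalized counts) and was at most 5.90 in every other library, the wild-type ones included. The second component (13.9%) was negative in those 5 libraries and positive in the other 7. NEO-OUT 9 held leukocyte and macrophage RNA: 12 of 12 such markers had reads and summed to 4425 normalized counts, with Lyz2 at 3685, against sums of 112.5 to 169.9 in the 11 other knockout libraries. Defining markers of a whole gastrulating embryo were present in every knockout library, with T of the primitive streak at 6622 to 10077 in NEO-IN and 5686 to 11523 in NEO-OUT, and Elf5 of the extraembryonic ectoderm at 2150 to 3717 in NEO-IN and 2677 to 3939 in NEO-OUT. Markers of maternal decidua and uterus summed to 1730 to 2411 in NEO-IN and 1561 to 2036 in NEO-OUT. This sum includes Hand2, counted as a cardiac gene too, at 492.6 to 869.4 in NEO-IN and 383.5 to 719.1 in NEO-OUT. It is therefore not a measure of maternal RNA alone. In whole embryos, fewer cells of a type and less RNA per cell cannot be told apart.

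**Figure D1:**
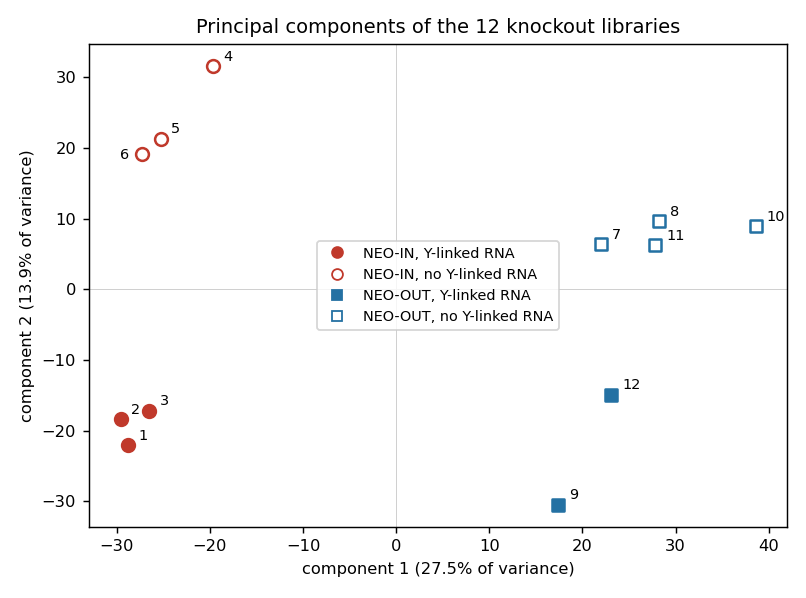
Principal components 1 and 2 of log2(normalized count + 1) in the 12 knockout libraries, with the share of variance on each axis; circles are NEO-IN, squares NEO-OUT, numbers name the embryo, and filled symbols mark libraries with Y-linked RNA. All 6 NEO-IN libraries lie at -19.7 or below on component 1 and all 6 NEO-OUT libraries at 17.4 or above.

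Apela itself differed between the knockouts. Apela (ENSMUSG00000079042.6) is protein-coding and lies on the minus strand of chromosome 8, from 65028417 to 65037336 in GRCm38. It had a lowest, median and highest normalized count of 5.83, 9.73 and 25.9 in NEO-IN, and of 50.6, 60.6 and 107 in NEO-OUT. The wild-type embryos had 2004, 1902 and 1082. Every NEO-IN embryo lay below every NEO-OUT embryo, and both strains lay far below wild-type. The log2 fold change of NEO-IN over NEO-OUT was -2.60 (adjusted p = 8.74e-05 in limma, SE 0.31), so that NEO-IN had 6.05-fold less of this remaining signal. NEO-IN 4 had the highest count of its strain, and the log2 fold change was -2.85 without it. Apln averaged 7168 ± 707 in NEO-IN and 7720 ± 714 in NEO-OUT (SD, n = 6 each), with a log2 fold change of -0.11 (95% interval -0.25 to 0.04) and a limma adjusted p of 0.341. Aplnr averaged 8558 ± 430 in NEO-IN and 8691 ± 672 in NEO-OUT, with a log2 fold change of -0.02 (95% interval -0.13 to 0.09) and a limma adjusted p of 0.842. For ligand and receptor alike, the difference between the strains was smaller than the spread within either of them.

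Across all genes, 1900 of 16392 (11.6%) passed an adjusted p of 0.05 in limma, and a gene is said here to rise or fall in NEO-IN only where it passed. Of these, 968 (5.91% of tested genes) rose and 932 (5.69%) fell. Most shifts were small: the median absolute log2 fold change was 0.34 among the genes that passed and 0.11 among all genes tested. A change of at least 2-fold was seen in 239 genes (1.46% of tested genes), of which 145 rose and 94 fell. For 14405 genes (87.9%) the 95% interval lay within a 2-fold change either way. The 6 and 6 values did not overlap for 957 genes (5.84%), 470 with NEO-IN above (2.87%) and 487 with NEO-IN below (2.97%). When each of the 12 libraries was left out in turn, 1120 of the 1900 genes passed every time. The share that passed was 12.3% among protein-coding genes, 6.47% among long noncoding genes and 6.54% among pseudogenes, and it was 5.24% at mean counts from 10 to 50 against 13.3% at 1000 and over. Pseudogenes made up 55 of the 239 changes of at least 2-fold, and many of them share reads with a near-identical parent gene, so their values are uncertain.

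**Figure D2:**
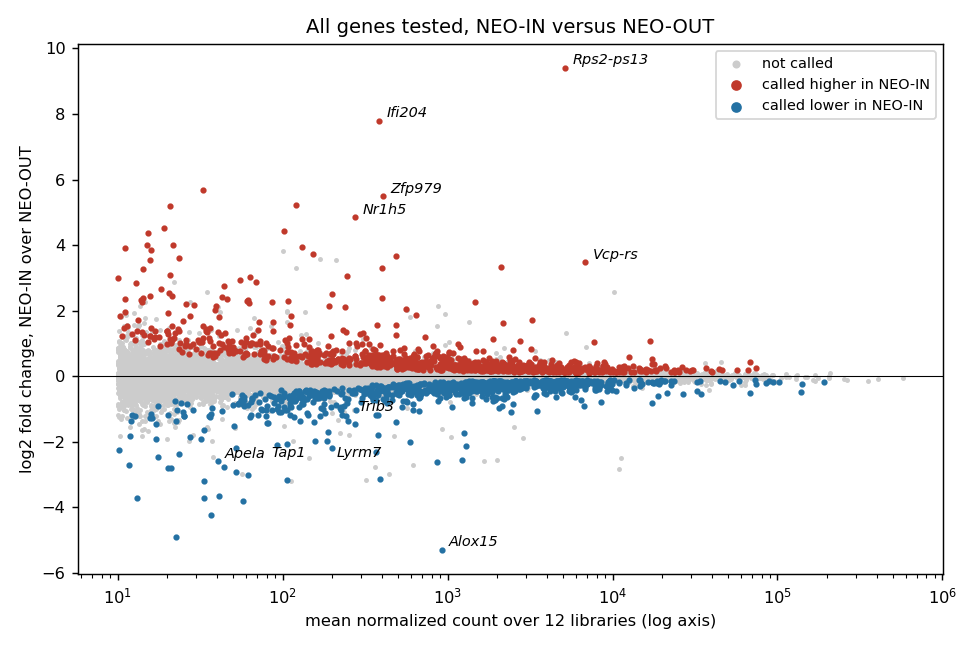
Log2 fold change of NEO-IN over NEO-OUT for each of the 16392 genes tested, against the mean normalized count over the 12 libraries on a log axis; coloured points passed the limma test. Genes called higher reach 9.40 at Rps2-ps13 and genes called lower reach -5.30 at Alox15.

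The largest increases in NEO-IN included retrocopies and pseudogenes, zinc finger genes of distal chromosome 4, and genes that were on in some embryos and off in others. Rps2-ps13, a processed copy of a ribosomal protein gene on chromosome X, had a lowest, median and highest count of 7213, 8076 and 15836 in NEO-IN and of 9.80, 12.4 and 22.5 in NEO-OUT. Its log2 fold change was 9.40 (adjusted p = 9.11e-13 in limma, SE 0.23). The wild-type embryos did not share 1 level, with 8.31, 7548 and 6892, so both states also occurred among embryos with intact Apela. Vcp-rs, another X-linked copy, had 15885, 15846 and 15289 in NEO-IN 1, 2 and 3 and 8343, 7890 and 7692 in NEO-IN 4, 5 and 6. In NEO-OUT it lay between 612.2 and 745.2 except in NEO-OUT 10, with 7949 (log2 fold change 3.47, adjusted p = 0.000713 in limma, SE 0.52). Eif5al3-ps showed both states within NEO-IN, with 33.0 and 38.7 in embryos 2 and 3 and 498.2 to 836.8 in the other 4, against 15.9 to 41.5 in NEO-OUT. Reads of these copies cannot be separated from those of their parent genes with certainty.

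Ifi204, a member of the PYHIN family of cytoplasmic and nuclear DNA sensors, was on in most embryos of 1 strain and nearly absent from the other. It had 735, 1412, 690.9, 955.3 and 825.4 in 5 NEO-IN embryos and 0 in NEO-IN 4. It was at 0 in 5 NEO-OUT embryos and had 3.92 in NEO-OUT 9, and it was at 0 in all 3 wild-type embryos. Its fitted log2 fold change of 7.79 (adjusted p = 0.00245 in limma, SE 1.38) depends on the pseudocount of 1, since nearly all NEO-OUT values are 0. Its neighbours on chromosome 1, Ifi207 and the pseudogene Ifi203-ps, followed the same embryos: Ifi207 had 25.8 to 82.6 in the same 5 NEO-IN embryos and 0 in NEO-IN 4, in every NEO-OUT embryo and in every wild-type embryo. The family has near-identical members, so the split of reads among them is uncertain. Of the 9 interferon-inducible genes tested, Ifi204 was the only one to pass (11.1%, against 11.6% of all genes). Bst2 had a log2 fold change of -0.11.

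Other named increases were of genes with known products. Nr1h5, a nuclear receptor, had 598.4 to 1348 in NEO-IN 1 to 4, 15.6 and 16.6 in NEO-IN 5 and 6, and 1.91 to 11.7 in NEO-OUT. Its neighbour Sycp1, a component of the synaptonemal complex of meiosis, was also lowest in NEO-IN 5 and 6, with 44.9 and 27.4, against 116.4 to 207.2 in NEO-IN 1 to 4 and 4.11 to 31.5 in NEO-OUT. These 2 genes lie side by side on chromosome 3, and their counts marked the same embryos. The wild-type embryos had 690, 754.3 and 16.8 of Nr1h5 and 76.9, 103.9 and 24.2 of Sycp1. High and low counts of both genes thus also occurred among wild-type embryos. Gdpd3, a phosphodiesterase of lysophospholipids, had 62.1, 101 and 134 as the lowest, median and highest count in NEO-IN and 7.46, 12.0 and 21 in NEO-OUT (log2 fold change 2.94, adjusted p = 5.53e-06 in limma, SE 0.26). Fbp2, the muscle form of the gluconeogenic enzyme fructose-1,6-bisphosphatase, had 93.8, 138 and 184 in NEO-IN and 23.5, 26.1 and 42.6 in NEO-OUT. Both genes were separated completely between the strains. Ttll11, a tubulin-modifying enzyme, rose by 2.88 on the log2 scale although NEO-IN 5, with 12.7, lay within the NEO-OUT range of 3.92 to 20.6. H2-T22, a non-classical MHC class I gene with close relatives nearby, rose by 2.32 in limma with NEO-OUT 11 (117.5) inside the NEO-IN range, and did not pass with edgeR or DESeq2 on recovered reads (adjusted p up to 0.105).

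Among decreases, Alox15, a lipoxygenase that oxygenates polyunsaturated fatty acids, stood at the far end. Its lowest, median and highest count was 11.7, 55.0 and 192 in NEO-IN and 1399, 1665 and 2591 in NEO-OUT, with a log2 fold change of -5.30 (adjusted p = 1.85e-05 in limma, SE 0.53). The highest NEO-IN embryo lay far below the lowest NEO-OUT embryo, and the wild-type embryos spread across that gap with 918.6, 1111 and 55.9. The pseudogene Gm12312, named here after its values were seen, lies beside Alox15 on chromosome 11. Between the strains it ran the other way, with 21.3 to 35.7 in NEO-IN and 0 to 2.13 in NEO-OUT. The wild-type embryos had 14.55, 17.82 and 27.95 of it, so wild-type 1 and 2 had reads of both genes. Tap1, which carries peptides into the endoplasmic reticulum for MHC class I, had 29.1, 75.5 and 91.8 in NEO-IN and 190, 256 and 300.4 in NEO-OUT. Lyrm7, an assembly factor of mitochondrial complex III, had 59.5, 74.5 and 85.2 in NEO-IN and 159.8, 352 and 379 in NEO-OUT. Elovl7, an elongase of fatty acids, had 121, 144 and 191 in NEO-IN and 365, 397 and 471 in NEO-OUT. Tap1, Lyrm7 and Elovl7 had log2 fold changes of -1.98, -1.97 and -1.46 (limma adjusted p = 0.000237, 4.84e-05 and 1.43e-06) with no overlap between strains.

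B3galt5, a galactosyltransferase, was even in NEO-OUT (534.6 to 601.1) and scattered in NEO-IN, where embryos 1, 4 and 6 had 5.82, 9.42 and 19.5 and embryos 2, 3 and 5 had 429.4, 531.3 and 225.4. Its log2 fold change of -3.14 had a limma adjusted p of 0.0435, which was lost in 9 of the 12 fits without 1 library and was 0.0828 with runs of 3 embryo numbers as a block. Nckap1l, a regulator of actin in blood cells, likewise fell by 1.37 (limma adjusted p = 0.047) and missed the threshold in 10 of those fits. Other named decreases kept their calls in all 12: the log2 fold change was -1.44 for Dmrt3, a DM-domain transcription factor, -1.39 for Myh7b, a myosin heavy chain, -1.23 for Ano2, a calcium-activated chloride channel, and -1.22 for Akr1c19, an aldo-keto reductase. Them7 and Npm3-ps1 fell, with log2 fold changes of -2.19 and -2.11, and Npm3-ps1 had 143.7 in NEO-IN 3 against 18.4 to 35.2 in the other NEO-IN embryos.

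**Figure D3:**
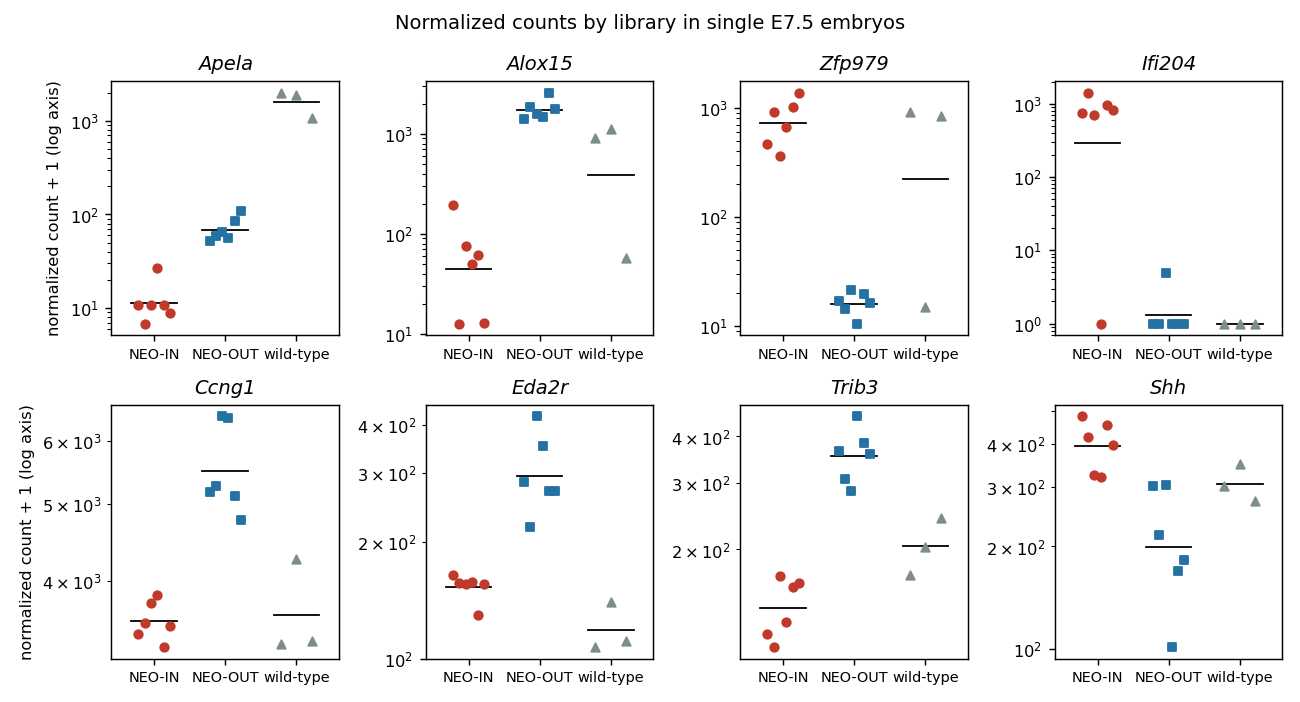
Normalized count + 1 on a log axis for 8 genes, 1 point per embryo; circles are NEO-IN (n = 6), squares NEO-OUT (n = 6), triangles wild-type (n = 3), and lines are means on the log scale. Apela, Alox15, Zfp979, Ccng1, Eda2r, Trib3 and Shh separate NEO-IN from NEO-OUT without overlap, whereas Ifi204 has NEO-IN 4 at 0.

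Complete absence from 1 strain was rare. At most 3 reads in every embryo of NEO-OUT were found for 10 genes, and 4 of them had reads above that limit in all 6 NEO-IN embryos. The same held in every NEO-IN embryo for 4 genes, of which 1, the pseudogene Hspe1-ps5, had more in all 6 NEO-OUT embryos. Fhitos, an antisense RNA, had 17.6 to 98.9 in NEO-IN, 0 in every NEO-OUT embryo and 34.6 to 60.3 in wild-type; whether counting kept strands apart is not given in the sources used here, so its reads may include those of its partner gene. Several absences rested on few embryos. Sycp2l, a relative of synaptonemal complex proteins, had 1038 and 973.9 in NEO-IN 4 and 5 and at most 1.95 in the other 4. Tmprss11a, a membrane protease gene, had 200.1 and 220.1 in NEO-IN 2 and 4 and 0 in all other knockout embryos. Adgre1, C1qa and Prg4 appeared as absent from NEO-IN only through NEO-OUT 9, where they had 182.1, 144.9 and 441.5; the first 2 mark macrophages, and none of the 3 passed the test. The genes of this paragraph were picked by absence, after their values were seen.

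Several targets of p53 were lower in NEO-IN. p53 is a transcription factor that answers DNA damage and other stress by raising genes for cell cycle arrest, death and repair. Of 19 target genes tested, 8 fell (42.1%, against 5.69% of all genes) and none rose, 18 of 19 log2 fold changes were negative, and their median was -0.13 against 0.0 over all genes tested. The count was 7 with runs of 3 embryo numbers as a block and 7 to 8 when a library was left out. Mean levels over the list, centred on all libraries, ran from -0.14 to -0.09 in NEO-IN, from 0.05 to 0.20 in NEO-OUT and from -0.24 to -0.12 in wild-type. NEO-IN thus lay near wild-type here, and NEO-OUT lay above both.

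The affected members belong to several arms of the response. Ccng1, a cyclin that acts in the feedback on p53, had a lowest, median and highest count of 3304, 3529 and 3840 in NEO-IN and of 4773, 5214 and 6436 in NEO-OUT (log2 fold change -0.62, adjusted p = 6.76e-05 in limma, SE 0.07). The wild-type embryos had 3332, 4258 and 3363. Eda2r, a receptor of ectodysplasin A2, had 129, 155 and 163 in NEO-IN and 217, 276 and 419 in NEO-OUT (log2 fold change -0.95, adjusted p = 0.000586 in limma, SE 0.14), with 106, 138.6 and 109.9 in wild-type. In both genes the strains did not overlap. Trp53inp1, a promoter of stress-induced death and autophagy, had 1106, 1292 and 1396 in NEO-IN and 1737, 1870 and 2390 in NEO-OUT. Perp, a junction protein, had 1653, 1691 and 1943 in NEO-IN and 2153, 2183 and 2545 in NEO-OUT. Sesn2, Btg2, Phlda3 and Tnfrsf10b fell too, with log2 fold changes of -0.23, -0.28, -0.40 and -0.22, and Tnfrsf10b missed the threshold in 11 of the 12 fits that leave out a library. Classical targets were closer between strains: Cdkn1a, the cell cycle inhibitor p21, had a log2 fold change of -0.11 (95% interval -0.33 to 0.10), Mdm2, the ubiquitin ligase that removes p53, one of -0.09 (95% interval -0.17 to -0.02), and Bax, a pore former of apoptosis, one of -0.09 (95% interval -0.18 to -0.01). None of these 3 passed, with limma adjusted p of 0.526, 0.11 and 0.144.

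The bases just before the start of 3 targets are shown as examples of a member that fell with a p53 half-site there, a member that fell without one, and a member that has it and did not pass. The sequences are RefSeq's for GRCm38.p6, read 5′ to 3′ on the gene's strand over the 250 bases before its start, and capitals mark each match to the p53 half-site, the decamer to which p53 binds in pairs, searched on both strands with overlaps allowed.
Ccng1, which fell (chr11:40755287-40755536, minus strand): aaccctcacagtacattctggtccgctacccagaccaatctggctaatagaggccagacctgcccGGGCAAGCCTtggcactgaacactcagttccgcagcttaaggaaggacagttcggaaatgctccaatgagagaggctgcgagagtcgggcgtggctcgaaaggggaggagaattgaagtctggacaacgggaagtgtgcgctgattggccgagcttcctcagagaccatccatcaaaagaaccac
Eda2r, which fell (chrX:97377210-97377459, minus strand): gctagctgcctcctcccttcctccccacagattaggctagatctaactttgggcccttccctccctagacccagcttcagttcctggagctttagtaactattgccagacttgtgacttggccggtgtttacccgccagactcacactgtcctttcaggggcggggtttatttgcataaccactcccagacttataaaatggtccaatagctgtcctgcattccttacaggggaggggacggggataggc
Cdkn1a, which did not pass (chr17:29090729-29090978, plus strand): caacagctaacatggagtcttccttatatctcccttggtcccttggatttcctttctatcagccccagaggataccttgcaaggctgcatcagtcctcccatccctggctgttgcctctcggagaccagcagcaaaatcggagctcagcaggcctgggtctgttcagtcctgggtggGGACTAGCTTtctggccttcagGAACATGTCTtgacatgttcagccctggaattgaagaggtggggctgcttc
Ccng1 held 1 match, Cdkn1a 2 and Eda2r 0 in the windows shown. For a gene with several listed starts, the window with the most matches was the one shown. In the counts that follow, a gene had the match where any of its windows held it. Over the 13 tested targets with an entry in the promoter table, the match was present in 1 of 5 that fell and in 6 of 8 that did not pass, against 2216 of 27025 genes (8.2%). A match is a description of these letters, and p53 sites are often farther from the start than this window reaches.

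Some chaperone genes were lower in NEO-IN. Hsph1, a co-chaperone of Hsp70, had a lowest, median and highest count of 26446, 27398 and 28990 in NEO-IN and of 33247, 37368 and 42817 in NEO-OUT (log2 fold change -0.44, adjusted p = 6.85e-05 in limma, SE 0.05). Hspa8, the constitutive cytosolic Hsp70, fell by 0.47 (limma adjusted p = 0.00937) and Hspa5, its counterpart in the endoplasmic reticulum, by 0.22 (limma adjusted p = 0.00771). These were the 3 of 12 chaperone genes to pass (25%, against 5.69% lower among all genes). For Hspa8, NEO-OUT 7 to 10 had 173606 to 186881 and NEO-OUT 11 and 12 had 124872 and 119109, against 110943 to 120304 in NEO-IN. The inducible pair Hspa1a and Hspa1b, near-identical copies whose reads cannot be told apart, did not pass, with log2 fold changes of -0.85 and -1.13. For Hspa1b, NEO-IN 1, 2 and 3 had 252.1, 275.9 and 126.9 and NEO-IN 4, 5 and 6 had 73.0, 63.4 and 53.7, against 147 to 324.9 in NEO-OUT.

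In the integrated stress response, where Atf4 raises genes of amino acid supply, members went both ways. Trib3, a pseudokinase that feeds back on Atf4, had 109, 143 and 168 in NEO-IN and 286, 361 and 452 in NEO-OUT (log2 fold change -1.35, adjusted p = 2.65e-05 in limma, SE 0.14), with 170.4, 201.9 and 242.2 in wild-type. All 3 wild-type embryos lay above every NEO-IN embryo and below every NEO-OUT embryo. Sesn2, counted among p53 targets too, fell, while Psat1, an enzyme of serine synthesis, rose by 0.14 (limma adjusted p = 0.0236) and Atf4 by 0.13 (limma adjusted p = 0.0498, lost in 10 of 12 fits without 1 library). In all, 2 of 12 members rose and 2 fell (33.3% together, against 11.6% of all genes).

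Metabolic lists held calls in both directions, of at most 0.49 in size on the log2 scale. Of 16 genes of cholesterol synthesis and uptake, 3 rose and 2 fell (31.2%, against 11.6% of all genes), and 4 to 5 passed in every setting tried. Srebf2, a transcriptional activator of the pathway, rose by 0.20, while Insig1, which retains that activator in the endoplasmic reticulum, fell by 0.31. Of 15 hypoxia and glycolysis genes, 1 rose (Eno1, by 0.26) and 4 fell (33.3% in all), among them Bnip3, a mitophagy receptor, by 0.49 and Pfkp, a phosphofructokinase, by 0.36. With runs of 3 embryo numbers as a block, and likewise without NEO-OUT 10, 2 of the 15 passed. All 7 mitochondrially encoded genes tested had negative log2 fold changes, with a median of -0.27, but none passed; at most 2 passed when 1 library was left out. Their nuclear partners had a median of 0.00, and 1 of 20 fell (5%, against 5.69% of all genes), Sdha, a subunit of complex II, by 0.17. Mitochondrially encoded RNA made up 0.302% to 0.501% of reads in NEO-IN, 0.393% to 0.602% in NEO-OUT and 0.789% to 1.123% in wild-type.

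Several DNA replication genes were slightly higher in NEO-IN. Of 20 tested, 5 rose (25% against 5.91% of all genes), none fell, and 17 had positive log2 fold changes, with a median of 0.09. Rrm1, a subunit of ribonucleotide reductase, had 21871, 22226 and 24012 in NEO-IN and 18328, 19155 and 20306 in NEO-OUT (log2 fold change 0.24, adjusted p = 0.000943 in limma, SE 0.04). Mcm3, part of the replicative helicase, rose by 0.20 (limma adjusted p = 0.00123) and Lig1, the ligase of Okazaki fragments, by 0.19 (limma adjusted p = 0.00182), each with all NEO-IN embryos above all NEO-OUT embryos. Mcm4 rose by 0.12 and Pold1, the catalytic subunit of polymerase delta, by 0.24. The count stayed between 4 and 7 in every setting tried. Cyclins and mitotic genes did not move with them as a list. Of 16, 1 rose (6.25%, against 5.91% of all genes), the G1 cyclin Ccnd1 by 0.29, and the median was 0.02. Of 12 DNA methylation genes, 2 rose (16.7%, against 5.91% of all genes). Tet3, an oxidase of methylcytosine, rose by 0.32 (limma adjusted p = 0.00551) and Uhrf1, which recruits the maintenance methyltransferase, by 0.13 (limma adjusted p = 0.0454). Uhrf1 did not pass with runs of 3 embryo numbers as a block (limma adjusted p = 0.0737), with edgeR, or in 9 of the 12 fits without 1 library.

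Among patterning genes of the embryo proper, those of the anterior neural plate passed in both directions. Of 11 anterior neuroectoderm genes tested, 5 rose and 2 fell (63.6%, the highest share of any list, against 11.6% of all genes). Six3, a forebrain determinant, had 368, 472 and 591 in NEO-IN and 215, 299 and 434 in NEO-OUT (log2 fold change 0.64, adjusted p = 0.0131 in limma, SE 0.15). Sox1, an early neural marker, averaged 360 ± 50.6 in NEO-IN and 202 ± 69.4 in NEO-OUT (SD, n = 6 each), a log2 fold change of 0.92. Hesx1, of the prospective forebrain, rose by 0.77, Otx2, of head and epiblast, by 0.24 and Sox11 by 0.25. Against these, Lhx2, of the eye field and forebrain, had 174, 190 and 197 in NEO-IN and 208, 322 and 365 in NEO-OUT (log2 fold change -0.70, limma adjusted p = 0.00212), and En1, of the midbrain and hindbrain border, fell by 0.78. The list therefore has no common direction. NEO-OUT 10 had the lowest Sox1 (79.9), Hesx1 (149.2) and Six3 (215.2) of its strain, and the count was still 7 without it.

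Node and notochord genes held 3 increases among 14 (21.4%, against 5.91% of all genes), and 2 passed with runs of 3 embryo numbers as a block and without NEO-OUT 10. Shh, the midline morphogen, had 320, 408 and 482 in NEO-IN and 100.1, 198 and 302 in NEO-OUT (log2 fold change 0.99, adjusted p = 0.0106 in limma, SE 0.22), with 299.3, 347.5 and 271.1 in wild-type. Noto, a homeobox gene of the node and notochord, had 408, 497 and 581 in NEO-IN and 253, 317 and 384 in NEO-OUT (log2 fold change 0.65, limma adjusted p = 0.00205). In both, every NEO-IN embryo exceeded every NEO-OUT embryo. Pkd1l1, a ciliary channel subunit of left-right determination, rose by 0.51 (limma adjusted p = 0.0328, and 0.0621 with runs of 3 embryo numbers as a block). Lefty1 and Lefty2, secreted Nodal antagonists, had log2 fold changes of -1.83 and -1.03 without passing, and NEO-OUT 10 had the highest counts of both, 61.8 and 1137. Nodal differed by -0.02 (95% interval -0.46 to 0.42), and none of 12 Nodal signalling genes passed.

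Of 11 genes of retinoic acid handling, 3 rose in NEO-IN (27.3%, against 5.91% of all genes). Stra6, a receptor for retinol uptake, had 803, 1025 and 1296 in NEO-IN and 582, 629 and 733 in NEO-OUT (log2 fold change 0.67, adjusted p = 0.000551 in limma, SE 0.10). The binding proteins Crabp2 and Crabp1 rose by 0.57 and 0.54 (limma adjusted p = 0.0127 and 0.0174). In paraxial mesoderm, Tcf15, a bHLH factor of the forming somites, rose by 0.68 (limma adjusted p = 0.0109) and the forkhead gene Foxc1 by 0.42, while Ripply2, which ends the presomitic programme, fell by 1.90 (limma adjusted p = 0.00735), with 3.91 to 30.1 in NEO-IN and 27.7 to 56.2 in NEO-OUT. The 3 of 11 became 6 of 11 without NEO-OUT 9. Meox1, of the somite, averaged 1352 ± 397 in NEO-IN and 574 ± 520 in NEO-OUT without passing (limma adjusted p = 0.0652); NEO-OUT 10 had 41.5 and NEO-OUT 7 and 9 had 1237 and 1202. Of 19 Hox genes, 15 had positive log2 fold changes (median 0.36) and 1 passed (5.26%, against 11.6% of all genes). This was Hoxc8, which did not pass with runs of 3 embryo numbers as a block (limma adjusted p = 0.0622). The spread inside NEO-OUT was wide for such genes of axial progress: list means of Hox genes ran from -0.16 to 0.53 in NEO-IN, from -1.02 to 0.28 in NEO-OUT and from -0.09 to 0.53 in wild-type.

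The streak, heart and endoderm lists held 1, 3 and 3 calls, too few to rank them. When 1 library was left out, 0 to 2 streak, 2 to 4 cardiac and 3 endoderm genes passed. Of 16 streak and nascent mesoderm genes, 1 passed (6.25%, against 11.6% of all genes), Eomes, a T-box factor needed for mesoderm and definitive endoderm, which fell by 0.49 (limma adjusted p = 0.0328) and did not pass with runs of 3 embryo numbers as a block (limma adjusted p = 0.0626). T, the defining gene of the streak, differed by 0.03. Cdx1 had the largest log2 fold change of the streak list, 1.32, and did not pass (limma adjusted p = 0.1). Of 15 cardiac genes, 3 passed (20%): Gata4, a zinc finger factor of heart and endoderm, fell by 0.28 (limma adjusted p = 0.00149), Myl7, an atrial myosin light chain, fell by 0.45 and Tnnt2, cardiac troponin T, rose by 0.92. Of 11 definitive and anterior endoderm genes, 3 passed (27.3%): Sox17, which specifies definitive endoderm, fell by 0.35 (limma adjusted p = 0.00593), Sfrp5, a secreted Wnt inhibitor, rose by 1.34 (limma adjusted p = 0.0137), and Otx2 rose as above. Of 12 Wnt targets, 3 rose (25%; Ccnd1, Sp5 and Znrf3), 1 passed with runs of 3 embryo numbers as a block, and 0 to 3 passed when 1 library was left out. The other signalling lists held 3 decreases among 12 BMP targets (25%, against 5.69% of all genes) and 1 increase among 13 Notch genes (7.69%), Notch3 by 0.20, which did not pass with the same block (limma adjusted p = 0.0896) or in 9 of the 12 fits without 1 library. None of 12 genes of the FGF response passed, and their log2 fold changes were all positive, from 0.01 to 0.27. Of the BMP targets, the T-box gene Tbx3 had 2968 to 3586 in NEO-IN and 3929 to 4831 in NEO-OUT (log2 fold change -0.39, limma adjusted p = 0.000884). The count of BMP targets was 7 without NEO-OUT 9 and 2 without NEO-OUT 10.

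Visceral endoderm genes that passed were all lower in NEO-IN. Of 17 visceral endoderm genes, 4 fell (23.5%, against 5.69% of all genes), none rose, 15 had negative log2 fold changes, and the median was -0.19. Hnf4a, a nuclear receptor that drives the secretory programme of this tissue, had 9552, 9948 and 11018 in NEO-IN and 10630, 11838 and 12520 in NEO-OUT (log2 fold change -0.22, adjusted p = 0.00601 in limma, SE 0.05). Ttr had 24121, 27198 and 31528 in NEO-IN and 33279, 41034 and 46959 in NEO-OUT, without overlap. Its log2 fold change was -0.54 (limma adjusted p = 0.000921), and it kept its call in all 12 fits without 1 library. Transferrin (Trf) fell by 0.66, a call lost in 5 of the 12 fits without 1 library, and apolipoprotein A1 (Apoa1) by 0.28. Apoa1 did not pass with runs of 3 embryo numbers as a block, and 2 of the 17 passed without NEO-OUT 10. Of 15 trophoblast genes, 2 passed (13.3%, against 11.6% of all genes). Esrrb, a nuclear receptor of trophoblast stem cells, fell by 0.44 (limma adjusted p = 0.0042), and Eomes fell as above. The giant cell hormone Prl3d1 scattered (log2 fold change 2.26, not passed). Of 16 primitive blood genes, 2 passed (12.5%, against 11.6% of all genes). Gfi1b, a repressor in red cell development, fell by 0.56 and Alas2, which makes the first intermediate of haem in red cells, by 0.96. None of 11 endothelial and none of 12 allantois genes passed.

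Smaller lists complete the account. Of 24 imprinted genes, 4 rose and 2 fell (25%, against 11.6% of all genes), led by Nnat at 0.45 (limma adjusted p = 0.00913). With runs of 3 embryo numbers as a block 1 of the 24 passed, and 2 passed without NEO-OUT 10. Of 7 primordial germ cell genes, 1 passed (14.3%, against 11.6% of all genes). This was Dppa3, which rose by 1.22 at low counts (11.7 to 31.0 in NEO-IN and 4.11 to 17.0 in NEO-OUT). It did not pass with the same block (limma adjusted p = 0.0603) or in 7 of the 12 fits without 1 library. Of 10 maternal decidua markers tested, 2 passed (20%, against 11.6% of all genes). Dcn, a proteoglycan of stroma, rose by 1.22 and Dio3, a deiodinase, fell by 0.48, while the summed levels of the list overlapped between strains. No leukocyte marker passed.

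**Figure D4:**
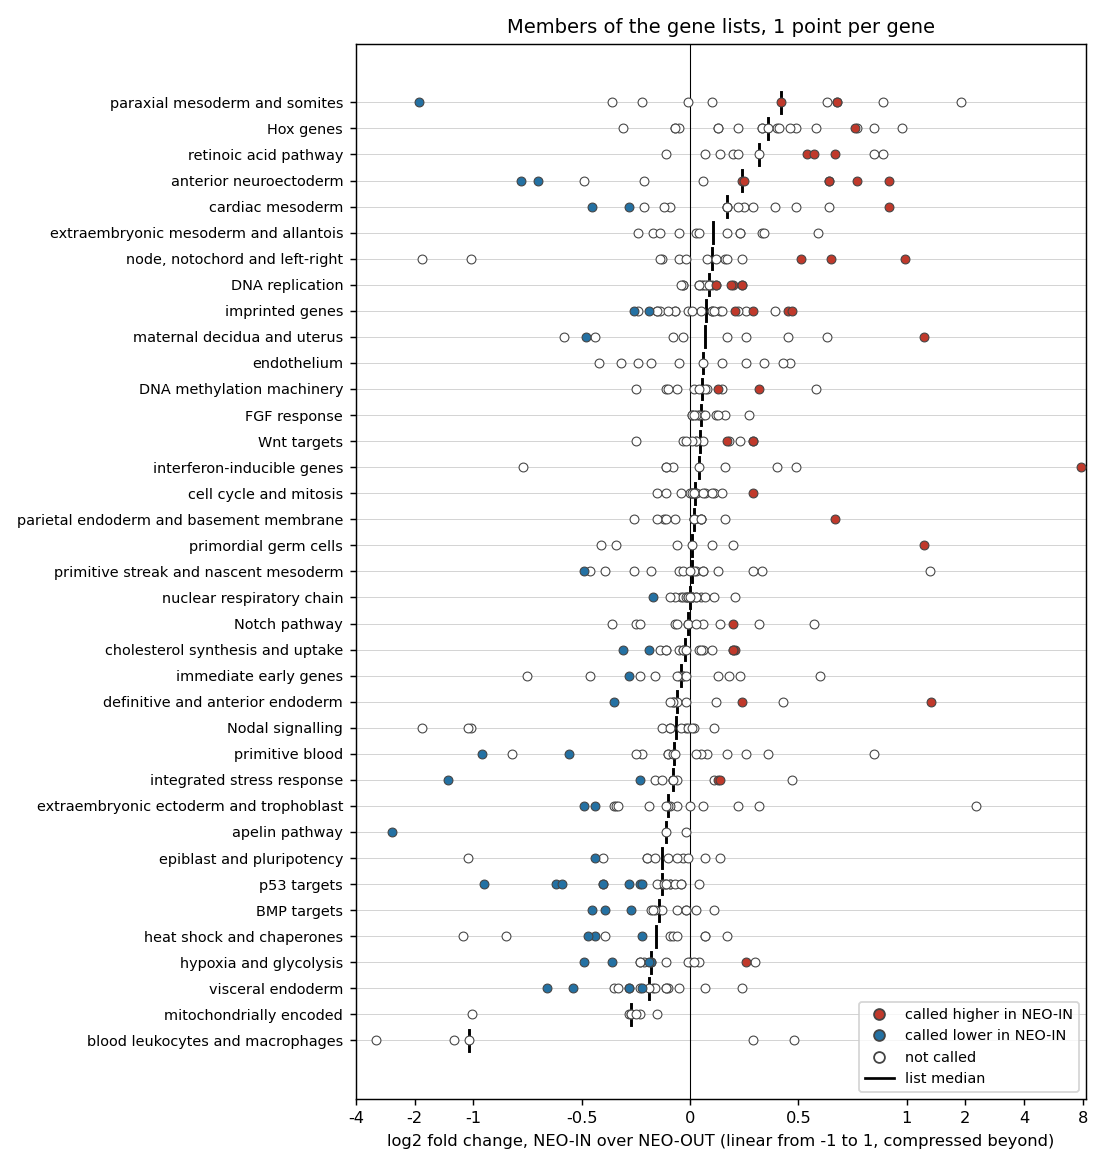
Log2 fold change of NEO-IN over NEO-OUT for each tested member of 37 gene lists, 1 point per gene, on an axis that is linear from -1 to 1 and compressed beyond; filled points passed the limma test and bars are list medians. The p53 targets have 8 filled points, all below 0, and the DNA replication genes 5, all above 0.

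The genes that changed were spread over the genome with a few denser stretches. In 265 windows of 10 Mb with at least 10 tested genes, the median share that passed was 11.1%, with a range of 0% to 32.3%. Chromosome 10 from 0 to 10 Mb led with 10 of 31, but held 4 to 8 when 1 library was left out. Distal chromosome 4, from 140 to 150 Mb, had 37 of 126 genes (29.4%), or 27 to 38 without 1 library, and 19 of the 239 changes of at least 2-fold. It holds a cluster of zinc finger genes, a class whose KRAB members silence retroelements. Grouped after their values were seen, 8 of 16 genes named Zfp in this window passed, all 8 by at least 2-fold, against 32 of 357 elsewhere (8.96%) and 29 of 110 other genes of the window (26.4%).

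Within that cluster, Zfp979 (chromosome 4, 147611937 to 147642513) had a lowest, median and highest count of 362, 790 and 1375 in NEO-IN and of 9.59, 15.6 and 20.6 in NEO-OUT (log2 fold change 5.49, adjusted p = 1.34e-08 in limma, SE 0.29), with 905.1, 13.9 and 832.8 in wild-type. Zfp984 rose by 3.29, Zfp987 by 3.09, Zfp991 by 2.51, Zfp992 by 2.40 and the pseudogene Znf41-ps by 3.93. Zfp990 fell by 2.01 in limma and did not pass with edgeR on recovered reads (adjusted p = 0.0503). Its NEO-IN values split, with 84.5, 80.0 and 95.7 in embryos 2, 5 and 6 and 423.7, 479.7 and 725.1 in embryos 1, 3 and 4, against 785.5 to 1030 in NEO-OUT. NEO-IN 2, 5 and 6 were also the 3 highest NEO-IN embryos for Zfp979, Zfp984, Zfp991, Zfp992 and Znf41-ps, but not for Zfp987, which was highest in NEO-IN 4 (68.3, against 23.3 in NEO-IN 2). For Zfp992 they had 969.5, 683.1 and 1013, against 371.4, 453 and 574.4 in NEO-IN 1, 3 and 4. Members of this cluster resemble each other closely, so the split of reads among them is uncertain.

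The other windows picked for their high share held genes of several kinds. On chromosome 10 from 20 to 30 Mb, 14 of 51 passed (27.5%, against 11.6% of all genes), and 10 to 15 when 1 library was left out. There Sgk1, a kinase of ion transport and survival signalling, had 4925, 6446 and 7279 in NEO-IN and 9736, 11015 and 11481 in NEO-OUT (log2 fold change -0.80, limma adjusted p = 6.41e-05). H60b, a ligand of the NKG2D receptor of natural killer cells, rose by 1.41 and the arginase Arg1 by 1.86. On chromosome 19 from 20 to 30 Mb, 16 of 59 passed (27.1%), and 11 to 16 when 1 library was left out. Aldh1a1, a retinaldehyde dehydrogenase of this window, fell by 1.46 at counts of 3.96 to 15.5 in NEO-IN and 15.0 to 31.3 in NEO-OUT. On chromosome 13 from 0 to 10 Mb, 7 of 24 passed (29.2%), among them Akr1c19, and 6 to 8 when 1 library was left out.

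Around Apela itself, on chromosome 8, the share was not raised. Apart from Apela, 14 of 149 genes within 10 Mb passed (9.4%, against 11.7% on the other chromosomes), 3 higher and 11 lower, with 1 change of at least 2-fold. From 10 to 20 Mb it was 5 of 120 (4.17%) and from 20 to 30 Mb 9 of 108 (8.33%).

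**Figure D5:**
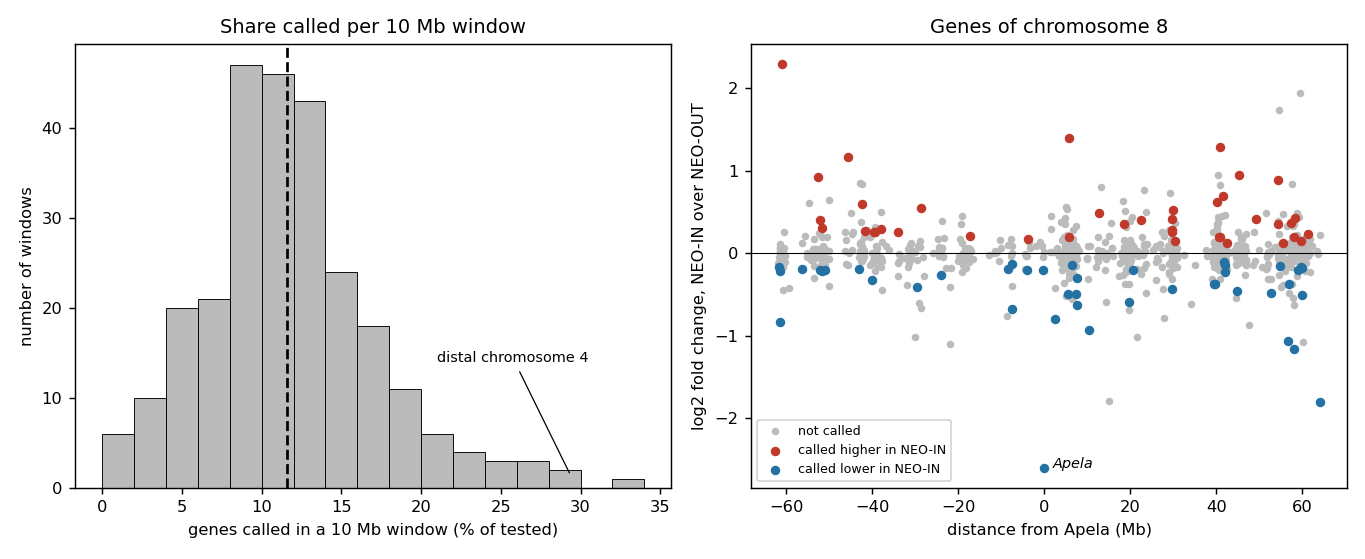
Left, number of 10 Mb windows by the share of their tested genes that passed, with the share over all genes, 11.6%, as a dashed line. Right, log2 fold change of NEO-IN over NEO-OUT for tested genes of chromosome 8 against distance from Apela, where 14 of the 149 genes within 10 Mb passed.

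Set beside the wild-type mean, 1320 of the 1900 genes had wild-type between the strains, 295 had wild-type above both and 285 below both. Wild-type was nearer to NEO-IN for 1145 genes and nearer to NEO-OUT for 755. For increases the counts were 604 nearer to NEO-IN and 364 nearer to NEO-OUT, and for decreases 541 and 391. With 3 wild-type embryos these are positions of means, and no test was made of them.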

How the data were processed

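Per the labels' protocols, polyadenylated RNA of 15 whole embryos was sequenced from TruSeq Stranded mRNA libraries. The authors deposited 1 table of signal values, each a gene's read count over the library's size factor. Per the submitters' processing notes, mm10 was the build, and kallisto, STAR, featureCounts, Picard and DESeq2 were used; neither roles nor versions are given. Dividing each column by its step gave whole reads for 100.0% of values (within 0.01) and hence depth. Between 76.9% and 79.1% of recovered counts up to 20 were even numbers, as counting both mates of a pair would give. A letter that preceded the number in 1 cell was ignored. Of the identifiers, 98.6% were annotated in GENCODE's GRCm38 annotation, which gave symbols and coordinates. No replicates agreed within sampling noise, and each embryo counted as 1.

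Under R 4.3.3, the trend method of limma 3.58.1 was fitted to log2(normalized count + 1) of the 12 knockout libraries and the 16392 genes with a mean of at least 10, with Benjamini-Hochberg adjusted p under 0.05 over all of them. This scale understates changes of low genes. The fit was tested on simulated data. The question, the gene lists and the tests were chosen with earlier results of these data known. Named genes were the apelin genes (Apela, Apln, Aplnr); the 15 largest changes each way at a mean of at least 50, gene models left out; up to 4 called members of each list, or the 2 with the smallest p; and up to 4 genes from each of the 5 densest windows. Not every named gene is given in the text. Alternatives changed the pseudocount, filter, scaling, libraries, covariates and block; recovered reads also went through edgeR 4.0.16 and DESeq2 1.42.0. Python 3.11.15 with matplotlib 3.10.9 drew the figures.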

Additional observations from a re-analysis of the deposited data

Results flagged for a closer look

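In each group of 6 embryos, the gap between the most extreme embryo and its nearest neighbour was compared with the group's whole range, for every named gene. Dixon's 95% limit is passed by chance in about 1 in 20 groups, and 19 of 252 groups passed it. In NEO-IN, embryo 4 stood apart for Apela (25.9 against 5.83 to 9.91 in the others), for Ifi204 (0 against 690.9 to 1412) and for Arg1 (294.3 against 819.7 to 1502). Embryo 3 stood apart for the pseudogene Npm3-ps1 (143.7 against 18.4 to 35.2) and for Perp (1943 against 1653 to 1709), embryo 5 for Ttll11 (12.7 against 87.2 to 227.2) and Eda2r (129 against 154.3 to 162.9), embryo 2 for Sox17 (1743 against 2165 to 2326), and embryo 1 for Hspa5 (84767 against 76199 to 78036).

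In NEO-OUT, embryo 9 was low for Eomes (2036 against 2860 to 3335), Lhx2 (207.6 against 305.2 to 364.6) and Msx2 (2660 against 3250 to 3650) and high for Lyz2 (3685 against 9.36 to 41.1). Embryo 10 was high for Vcp-rs (7949 against 612.2 to 745.2) and low for Crabp2 (1692 against 2701 to 3459). Embryo 8 was high for Zfp984 (98.7 against 61.7 to 66.6) and low for Ripply2 (27.8 against 48.0 to 56.2). Embryo 11 was high for H2-T22 (117.5 against 5.73 to 18.5) and embryo 7 for Asb13 (1078 against 887.1 to 931.1).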

How the results depend on the processing

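The count of 1900 genes was 1767 to 2180 under other pseudocounts, filters, scalings, covariates and with all 15 libraries in the fit, 1866 with edgeR's quasi-likelihood test and 2501 with DESeq2. With runs of 3 embryo numbers as a random block (1 to 3, 4 to 6, 7 to 9 and 10 to 12) it was 1257. Of these, 638 were higher and 619 lower, and the correlation within runs was 0.084. The labels do not say that these runs share anything. In NEO-IN the runs coincide with Y-linked RNA, which was present in embryos 1 to 3 and not in 4 to 6. In NEO-OUT it was present in embryos 9 and 12, which lie in different runs. All 1257 were among the 1900, and 1254 passed all 4 of limma, the block, edgeR and DESeq2. Leaving out 1 library gave 1393 (without NEO-OUT 10) to 1990 genes (without NEO-OUT 9), with 705 to 1028 higher and 681 to 962 lower. Apela kept its call wherever it was tested, with log2 fold changes of -2.85 to -2.45 without 1 library; a filter at a mean of 50 removes it. Aplnr, which did not pass, turned to 0.01 without NEO-OUT replicate 12 (limma adjusted p = 0.926), within a range of -0.05 to 0.01 without 1 library. Of 112 other called genes named by the rule, 85 passed in each of the 24 settings that tested them, and none changed sign. A gene below the filter of a setting was not tested in it. No paired analysis was possible because the NEO-IN numbers (1 to 6) and the NEO-OUT numbers (7 to 12) share none. Depth of 48.8 to 61.3 M reads limits genes of low counts, for which intervals are widest.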
